A study of Mus musculus with 18 samples.

Results

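Accessible sites of low GC content that opened in some but not all of 7 inbred mouse strains were examined in liver. The peak lists of A/J, AKR/J, DBA/2J, BALB/cJ, CBA/J, C3H/HeJ and, as the seventh, C57BL/6J were merged into 50775 sites, of which 50121 lie on autosomes. A site was kept where its mm9 sequence holds 42% GC or less and where 1 to 6 of the 7 lists have a peak that overlaps it by at least 1 bp. This left 1698 AT-rich sites out of 36212 partly shared autosomal sites, and the other 34514 partly shared sites, with more than 42% GC, are the sites they were set against. The AT-rich sites were thus chosen by their GC content and by the measured peak calls, so that their GC content, the number of lists per site and the strains called are given as descriptions with no test.

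All mice carried the unmodified genome of their strain, were male and ate a diet high in fat and sucrose, and livers of 2 biological replicates were profiled for each strain (18 samples over 9 strains). Besides the inbred strains, there are the recombinant inbred lines BXH2/TyJ and BXH19/TyJ, bred from C3H/HeJ and C57BL/6J, whose lists played no role in choosing the sites. FAIRE-seq isolates DNA that is not held by nucleosomes from formaldehyde-fixed tissue, here whole liver, so that an accessible region appears as a peak of reads. Each strain has 1 list of reproducible peaks made from both replicates. The inbred lists hold between 26769 (DBA/2J) and 30613 (CBA/J) peaks. Values per strain have no replicate error, and a missing peak does not show a closed site.

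Low GC content sets these sites apart from most promoters, which in mammals are rich in G and C. AT-rich accessible DNA in liver is known from distal enhancers and from the promoters of hepatocyte genes bound by HNF1, forkhead and C/EBP factors. AT-rich sequence is also found in LINE-1 elements (L1), retrotransposons that have spread through the genome in many near-identical copies and that are usually silenced in somatic cells. To tell such copies from single-copy sequence, each site was scored by the percentage of its overlapping 31-base words (31-mers) that occur more than once in the mm9 assembly. Sites with 50% or more are called repeated sites below, a limit chosen after the values had been seen.

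The AT-rich sites fell into 3 kinds. The first held 932 sites that were called in AKR/J alone and were not repeated (54.9% of the 1698). The second held 321 repeated sites (18.9%), and the third the remaining 445 sites (26.2%), of which 386 were called in 2 to 6 lists. Sequences of each kind are printed here from the plus strand of mm9 (NCBIM37), 300 bases around the middle of wider sites, with the binding motifs searched for further on in capitals. The next 3 were called in AKR/J alone among the inbred strains. They lie 610 bp downstream of a start site of Nr5a2 in an intron (chr1:138856080-138856379), 833 bp upstream of Cyp2j5 (chr4:96331783-96332082) and 674 bp upstream of Mup20 (chr4:61715919-61716218), and are shown because they hold motifs of HNF1 (Nr5a2 and Cyp2j5), a forkhead factor (Mup20) and nuclear receptors (Cyp2j5 and Mup20) near genes of hepatocytes.

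Nr5a2 intron: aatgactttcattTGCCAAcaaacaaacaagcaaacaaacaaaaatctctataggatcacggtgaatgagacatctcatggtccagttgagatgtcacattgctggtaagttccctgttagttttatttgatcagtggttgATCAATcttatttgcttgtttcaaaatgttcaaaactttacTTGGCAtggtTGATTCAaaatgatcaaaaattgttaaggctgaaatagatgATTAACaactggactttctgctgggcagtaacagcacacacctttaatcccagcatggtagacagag

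Cyp2j5 upstream: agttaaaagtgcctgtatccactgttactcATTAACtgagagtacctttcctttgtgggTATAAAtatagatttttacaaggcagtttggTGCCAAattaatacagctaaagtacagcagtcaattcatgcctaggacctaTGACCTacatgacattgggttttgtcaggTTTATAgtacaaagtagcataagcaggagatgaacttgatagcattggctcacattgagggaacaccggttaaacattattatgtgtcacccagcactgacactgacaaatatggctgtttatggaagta

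Mup20 upstream: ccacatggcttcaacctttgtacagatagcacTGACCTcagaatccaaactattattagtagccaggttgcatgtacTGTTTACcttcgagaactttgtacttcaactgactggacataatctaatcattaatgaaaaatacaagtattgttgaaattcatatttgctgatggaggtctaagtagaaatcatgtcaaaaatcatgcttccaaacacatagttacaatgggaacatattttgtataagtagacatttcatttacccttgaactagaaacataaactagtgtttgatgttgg

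The next pair is repeated, and is shown because both align to the same kind of element, at different places in it. The first lies 10744 bp upstream of Ugt2b37 (chr5:87694573-87694801, intergenic), a place where the study names an element of the L1Md_F2 subfamily. The other lies in intergenic sequence of chromosome 11 (chr11:15631713-15632012), 249375 bp from the nearest start site, that of the pseudogene Gm12010.

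Ugt2b37 upstream: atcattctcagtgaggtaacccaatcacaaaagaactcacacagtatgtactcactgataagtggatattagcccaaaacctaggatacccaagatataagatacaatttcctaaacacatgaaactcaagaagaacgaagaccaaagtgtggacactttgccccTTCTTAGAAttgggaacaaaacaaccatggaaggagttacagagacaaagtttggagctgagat

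chromosome 11 site: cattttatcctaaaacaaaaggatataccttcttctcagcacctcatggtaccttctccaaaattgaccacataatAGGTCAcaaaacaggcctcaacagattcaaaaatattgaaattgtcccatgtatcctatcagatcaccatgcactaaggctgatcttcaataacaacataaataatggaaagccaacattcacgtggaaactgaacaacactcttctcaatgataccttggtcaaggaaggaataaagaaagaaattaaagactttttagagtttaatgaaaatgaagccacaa

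The last is shown for the third kind. It was called in every inbred list but that of A/J and lies in an intron of Slc16a10, which encodes an aromatic amino acid transporter (chr10:39797336-39797635).

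Slc16a10 intron: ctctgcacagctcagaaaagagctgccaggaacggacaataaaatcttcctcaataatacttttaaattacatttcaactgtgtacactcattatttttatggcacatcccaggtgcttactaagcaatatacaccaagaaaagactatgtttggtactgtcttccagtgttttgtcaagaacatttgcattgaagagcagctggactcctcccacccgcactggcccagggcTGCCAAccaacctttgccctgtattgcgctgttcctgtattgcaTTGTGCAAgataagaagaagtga

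The AT-rich sites were spread unevenly over the strains. The AKR/J list had a peak at 1391 of the 1698 sites (81.9%, 95% interval 80.01 to 83.7%, exact Clopper-Pearson, counting error only, as for all intervals here). The next highest number was 421 sites in C57BL/6J, followed by 384 in DBA/2J, 347 in CBA/J, 324 in BALB/cJ, 198 in A/J and 171 in C3H/HeJ. Neighbours in this order from C57BL/6J to BALB/cJ have overlapping intervals, as have A/J and C3H/HeJ. At the other partly shared sites, AKR/J was close to the rest, with a peak at 36.5% of them against 28.4% in DBA/2J and 43.5% in CBA/J. By the GC content of single peaks, the autosomal AKR/J list held 1444 peaks with 42% GC or less, the other inbred lists between 110 (C3H/HeJ) and 309 (BALB/cJ), BXH19/TyJ 831 and BXH2/TyJ 188. The mean GC content of all AKR/J peaks was 54.8%, within the range of the other inbred lists (54.7 to 60.1%, the highest in A/J), while its 5th percentile, 42.1%, was the lowest (45.3 to 51.2% in the other inbred lists). With 1 list per strain, the genome of AKR/J, its mice and its libraries cannot be told apart.

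**Figure D1:**
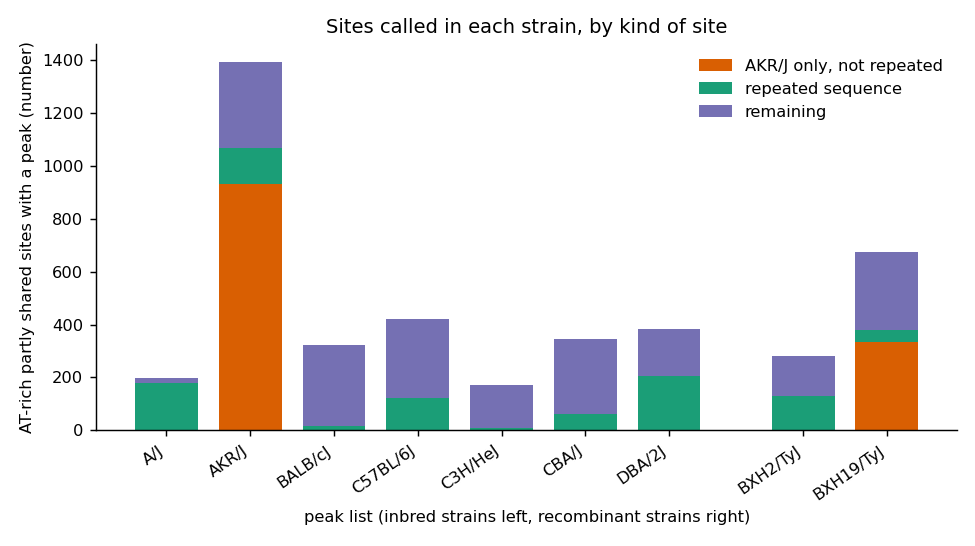
Number of AT-rich partly shared sites (y axis) with a peak in each of 9 lists (x axis), stacked by kind of site. AKR/J reaches 1391 sites, 932 of them sites that were not repeated and were called in no other inbred list, while repeated sites make up 181 of the 198 sites of A/J.

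Most AT-rich sites were called in a single strain, 1141 sites or 67.2%, compared with 41.8% of the other partly shared sites. Of these 967 were found in AKR/J (35 of them repeated), 63 in DBA/2J, 40 in A/J, 36 in BALB/cJ, 21 in C57BL/6J, 13 in CBA/J and 1 in C3H/HeJ. The single-strain sites of DBA/2J and A/J were nearly all repeated (56 and 39), those of BALB/cJ hardly at all (3). Without AKR/J, when sites called in 1 to 5 of the other lists were kept, 635 AT-rich sites remained. Only 97 AT-rich sites were called in 6 lists (5.71%, against 14.5% of the other partly shared sites), and 46 more AT-rich sites were called in all 7 lists and are not part of the group. The share of AT-rich sites among partly shared sites ranged from 2.68% on chromosome 11 to 7.80% on chromosome 3.

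Of the possible combinations of 1 to 6 strains, 75 held an AT-rich site and 51 held none, whereas each of them held other sites. After AKR/J alone (56.9% of AT-rich sites, 3.27% of other sites), the most frequent were all strains but A/J (79 sites, 4.65% against 9.15%), DBA/2J alone and A/J alone (2.36% against 20.4%). Some combinations that join A/J, C57BL/6J and DBA/2J took a larger share of the AT-rich sites than of the others. The 4 strains DBA/2J, C57BL/6J, AKR/J and A/J together held 25 AT-rich sites (1.47%), 24 of them repeated, against 22 other sites (0.0637%). The same 4 strains with CBA/J held 24 AT-rich sites, all repeated, against 29 other sites. The combination of A/J and C57BL/6J with DBA/2J held 24, of which 23 were repeated, against 113 other sites. With CBA/J but without AKR/J, these strains held 1 AT-rich site (0.0589%) against 20 others (0.0579%). The pair C3H/HeJ and CBA/J, which are related strains, held 1 AT-rich site against 434 others, and the pair A/J and BALB/cJ held 0 against 138. The 10 most frequent combinations held 78.4% of the AT-rich sites, and the same 10 held 46.9% of the others.

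**Figure D2:**
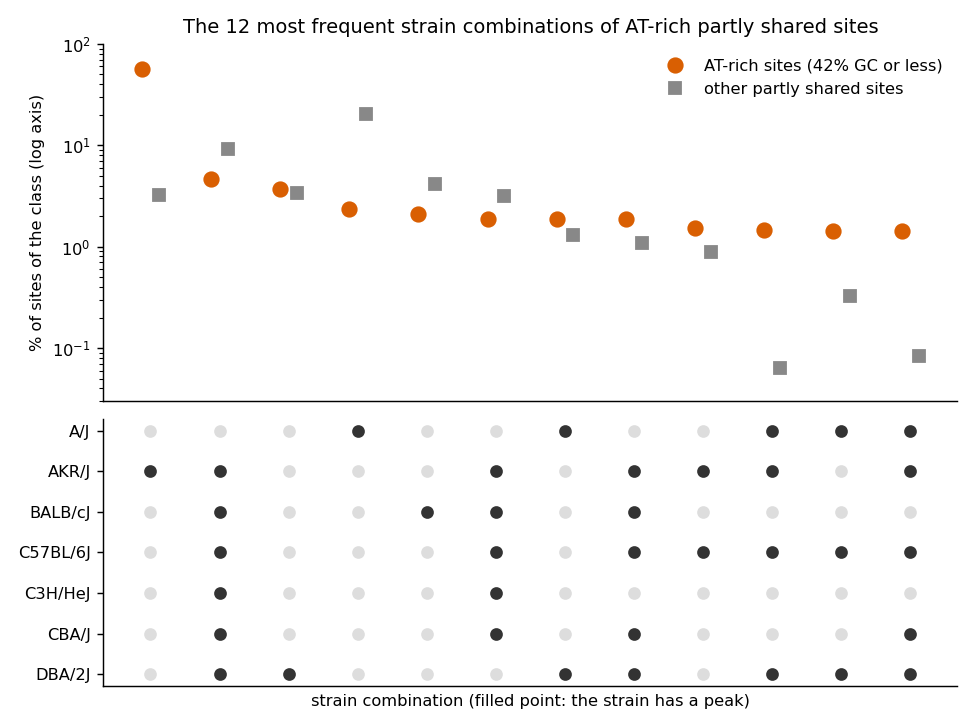
The 12 most frequent strain combinations of AT-rich sites. Upper panel, the percentage of AT-rich sites (circles) and of other partly shared sites (squares) with that combination, on a log axis. Lower panel, filled points mark the strains with a peak. AKR/J alone holds 56.9% of AT-rich sites and 3.27% of the others.

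Peaks at AT-rich sites were narrower than at the other partly shared sites, lay near transcription start sites less often, and lay in intergenic and repeated sequence more often. The comparison was made within each list, and the 7 differences were tested over strains with an exact two-sided sign-flip permutation test, whose smallest possible p with 7 strains is 0.0156. The p-values were adjusted over the 5 measures compared by the Benjamini-Hochberg method. The median peak width averaged 272 ± 55.8 bp at AT-rich sites against 355 ± 53.3 bp at the others (SD, n = 7 strains, exact test, adjusted p = 0.0391). AT-rich peaks were narrower in 6 of 7 strains, and AKR/J was the exception, with 332 bp against 329 bp. They lay within 1 kb of a transcription start site (TSS) less often, at 9.06 ± 1.99% against 23.9 ± 10.03% of sites, which was lower in 7 of 7 strains (exact permutation, adjusted p = 0.0260). The largest of these differences was in A/J, 6.06% against 46.3%. They lay in intergenic sequence more often, at 48.9 ± 9.87% against 37.7 ± 4.38% of sites, higher in 7 of 7 strains (exact permutation, adjusted p = 0.0260). Again A/J differed most, with 67.7% against 28.3%, while C3H/HeJ differed by 1.19 percentage points. The share of repeated 31-mers was 30.9 ± 30.6% against 3.21 ± 0.867% (exact permutation, adjusted p = 0.0260). It was higher in 7 of 7 strains and ranged from 6.79% in BALB/cJ and 7.44% in C3H/HeJ to 53.4% in DBA/2J and 89.5% in A/J. The percentile of the peak signal within its list, where 100 is the strongest peak, did not pass the threshold, with a mean over strains of the medians of 32.5 ± 7.48 against 28.9 ± 1.61 (exact permutation, adjusted p = 0.219). It was lower for AT-rich sites in AKR/J (21.2 against 28.2) and CBA/J (27.6 against 28.4), and highest in DBA/2J (42.3 against 27.5). The strains share sites and ancestry, so they are not independent draws. With only sites of a single list, where no site enters more than 1 strain, none of the 5 passed the exact test (adjusted p between 0.0781 and 0.766). Each strain counts equally there, although C3H/HeJ had only 1 such AT-rich site and AKR/J 967, so these differences rest on few sites in some strains. With all sites left out that hold 10% or more repeated 31-mers, a wider set than the repeated sites, the intergenic difference was 0.514 percentage points (exact test, adjusted p = 0.750) and that of repeated 31-mers 0.267 points. Under the same setting the width differed by -86.6 bp and the TSS share by -15.7 points, sizes close to those with all sites, with an exact adjusted p of 0.0521 for each of these 3. With GC content taken over the central 200 bp, the difference in width was -24.4 bp (exact test, adjusted p = 0.531). Leaving out any 1 strain other than AKR/J moved the 4 differences to exact adjusted p-values of 0.0521 to 0.0781 with 6 strains, above the threshold.

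**Figure D3:**
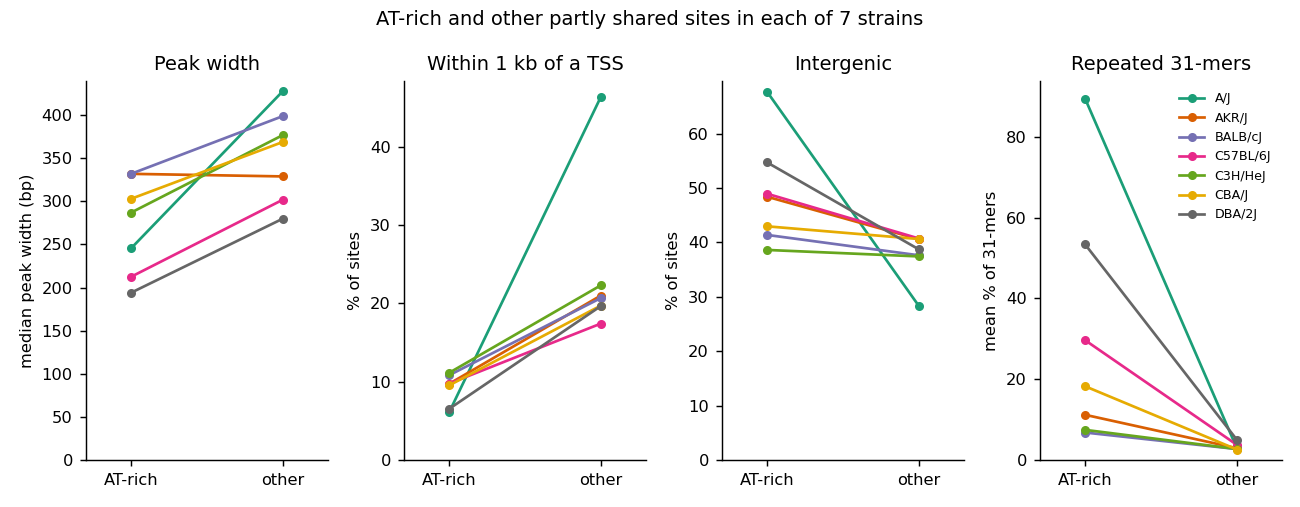
Median peak width in bp, percentage of sites within 1 kb of a TSS, percentage of intergenic sites and mean percentage of repeated 31-mers (y axes) in each of 7 strains, AT-rich sites left and other partly shared sites right, 1 line per strain. The lines of A/J are the steepest, with 6.06% of its AT-rich sites but 46.3% of its other sites within 1 kb of a TSS.

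Over all sites, AT-rich sites had a median width of 327 bp (quartiles 276 and 397) against 404 bp for the other partly shared sites. They covered 0.617 Mb against 17.3 Mb. The median distance to a TSS was 15315 bp against 6073 bp, and 11.8% of AT-rich sites lay over 100 kb from any TSS, against 3.47%. Only 52 (3.06%) had their middle in an exon, against 17.6% of the others, while 789 (46.5%) lay in introns, against 46.6%. CpG dinucleotides were absent from 207 AT-rich sites (12.2%, against 1.72%). The signal percentile was higher at sites called in more lists. AT-rich sites called in 1 list had a median percentile of 18.1 and those in 6 lists 49.1, against 16.8 and 42.7 for the other sites. The median width of AT-rich sites was 323 bp in 1 list, 290 bp in 2 and 391 bp in 6 lists, against 334, 375 and 552 bp.

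The limit of 42% GC falls within a gradual change. Just inside it were sites whose nearest start site is that of Invs, Tyr, Nt5dc3, Atp6v1c1 or Gm5423, called in 1 to 3 lists with mean percentiles of 3.02 to 40.1, and just outside it those of Gm12604, Nr4a2, Rps6, Aldh3a2 or Lrrc42, called in 1 or 6 lists with mean percentiles of 4.89 to 48.7. AKR/J had a peak at 82.7% of partly shared sites with 41 to 42% GC, at 79.3% with 42 to 43%, and at 36.5% with 50 to 55%. A/J ran the other way, with peaks at 6.79% of sites with 41 to 42% GC and 99.5% of those above 65%, but it was back at 23.1% for sites of 36% or less, of which 36.8% were repeated.

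Lists of variable and of common sites, ranked by the study from read counts of the same libraries, were deposited as well. Each holds 2539 sites, and every one is identical to a merged site. Of all autosomal sites, 5% are in the variable list and 5.05% in the common list. Of the AT-rich sites, 158 (9.31%, interval 7.97 to 10.8%) are in the variable list, against 6.27% of the other partly shared sites. Without AKR/J, the share was 20% of 635 AT-rich sites. Of the 46 further AT-rich sites that were called in all 7 lists and are outside the group, 13 were variable (28.3%, interval 16.0 to 43.5%). Among these 46, 34.8% were repeated. In the common list were 5 AT-rich sites (0.294%, interval 0.0957 to 0.686%), against 4.42%. These counts come from the same reads as the peaks that chose the sites, so they are not independent of the choice. The AT-rich variable sites were mainly repeated, 120 of 158, and 37.4% of repeated AT-rich sites were variable (interval 32.1 to 42.9%). Among repeated sites above 42% GC, 29.8% were variable. Of the AKR/J-only sites that were not repeated, 18 of 932 were variable (1.93%, interval 1.15 to 3.04%), and of the remaining AT-rich sites 20 of 445 (4.49%, interval 2.77 to 6.86%), against 5% of all sites. The share in the variable list was highest at 4 lists (30.1%) and was 3.86% for single-strain AT-rich sites.

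The repeated AT-rich sites differed in their strains from the other AT-rich sites. DBA/2J had a peak at 206 of the 321 (64.2%, interval 58.7 to 69.4%), A/J at 181, AKR/J at 137, C57BL/6J at 121 and CBA/J at 62, but BALB/cJ only at 15 (4.67%, interval 2.64 to 7.59%) and C3H/HeJ at 10 (3.12%, interval 1.504 to 5.65%). DBA/2J was also the highest at repeated sites above 42% GC (45.7%), where BALB/cJ had a peak at 18.6% and C3H/HeJ at 22.6%. Repeated sequence made up 91.4% of the AT-rich sites of A/J and 53.6% of those of DBA/2J, against 4.63% in BALB/cJ. The median width of the repeated AT-rich sites was 236 bp, 68.5% were intergenic and 24.3% were over 100 kb from a TSS. A typical 31-mer in them occurred 3446 times in the assembly (median over sites). The study kept only reads with a single location in the genome, and the part of that filter in these calls was not tested.

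Many of these sites aligned to one element. The site upstream of Ugt2b37 was singled out after its values had been seen. The sequence within 9 kb on either side of it was used as a target for alignment, and 137 of the 321 repeated AT-rich sites aligned to it over at least 80% of their length with at least 80% identity (median 93.7%), on 19 chromosomes. The same search placed 1 of the 1377 AT-rich sites that were not repeated and 32 of 786 repeated sites with more than 42% GC. Of the 137, 135 had their middle within 6.5 kb before and 0.5 kb after the start of the Ugt2b37 site. Their places were not even. The intervals with most sites were 2.5 to 2 kb before that start (24 sites) and the first 0.5 kb after it (21 sites), while no site lay between 2 and 1.5 kb before it. None of the 137 had a peak in BALB/cJ or in C3H/HeJ (0 of 137). This allows a share of up to 2.19% each, taken as 3 of 137 and not from an exact interval. DBA/2J had a peak at 101, A/J at 86, C57BL/6J at 52, AKR/J at 44 and CBA/J at 19, and 53 were in the variable list. The site upstream of Ugt2b37, whose gene encodes an enzyme that attaches glucuronic acid to drugs and steroids, had a percentile of 37.9 in A/J, 57.2 in C57BL/6J and 83.1 in DBA/2J. It has no peak in the other 4 inbred lists nor in either recombinant list. Another AT-rich site 1092 bp upstream of the same gene (chr5:87684921-87685225) has a peak in AKR/J alone, with a percentile of 30.5. The chromosome 11 site printed above matches the element at 91.0% identity, centred 5.85 kb before the start of the Ugt2b37 site. Its percentiles were 73.2 in A/J, 79.0 in AKR/J, 96.2 in C57BL/6J, 50.5 in CBA/J and 98.8 in DBA/2J, with no peak in BALB/cJ or C3H/HeJ. It was at 84.0 in BXH2/TyJ and 12.4 in BXH19/TyJ. An intergenic site 369935 bp from the nearest start site, that of Tsn, matched it at 92.1% identity (chr1:119837472-119837774, percentiles 40.5 to 98.1 in 5 inbred lists). Another, 519832 bp from that of Gfra2, matched at 96.0% (chr14:71836594-71836845). Its percentile was 88.3 in C57BL/6J, the only inbred strain with a peak, 55.8 in BXH2/TyJ and 8.88 in BXH19/TyJ.

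**Figure D4:**
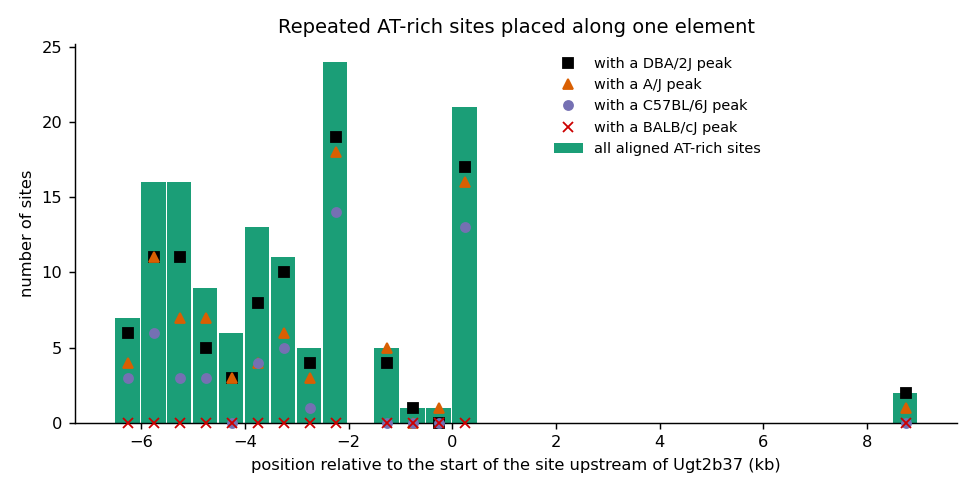
Number of repeated AT-rich sites (bars, 137 in all) by the place where their middle aligns, in kb from the start of the site upstream of Ugt2b37, in bins of 0.5 kb. Symbols give the number with a peak in DBA/2J, A/J, C57BL/6J and BALB/cJ, the last being 0 in every bin.

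Repeated sites could also be grouped with each other, by linking sites that share at least 30% of the 31-mers of the shorter one. This gave 16 groups of 2 or more with 243 sites, the 5 largest of which held 199, and left 78 sites alone. The largest had 54 sites, 39 of them on the element. A group of 35 sites, none on it, was without peaks in BALB/cJ and in C3H/HeJ, with 27 sites in A/J, 25 in DBA/2J and 18 in C57BL/6J. A group of 15 sites from 1 chromosome differed in that. It was the cluster at chr9:3005366-3038388, where all 15 partly shared sites were AT-rich, and its counts were 15 in A/J, 11 in AKR/J and in CBA/J, 9 in DBA/2J, 8 in BALB/cJ and in C57BL/6J and 1 in C3H/HeJ. The 6 highest mean percentiles among AT-rich sites in 2 to 6 lists came from this cluster, led by one in an intron of Gm11167 (chr9:3020283-3020744) with percentiles of 99.8 to 99.9 in A/J, AKR/J, C57BL/6J, CBA/J and DBA/2J and 90.6 in BALB/cJ. Of the 31-mers of that site, 95.6% are repeated, so the place of origin of its reads may be uncertain, which was not tested. The densest window of 1 Mb was another repeated cluster, with 32 AT-rich sites among 81 partly shared sites at chr8:19714560-20034467, called 31 times in DBA/2J and 0 times in BALB/cJ.

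The 932 sites of AKR/J alone were of another kind. They were weak, with a median percentile of 18.3 in the AKR/J list. The 1128 other sites called in AKR/J alone had a median of 15.9 (35 of them repeated). Of the 932, 79.6% had no repeated 31-mer, 9.98% lay within 1 kb of a TSS, 49.4% in introns and 48.7% in intergenic sequence. The highest percentile was 76.1, at a site 15952 bp downstream of a start site of 1600014C10Rik (chr7:38984758-38985259). Although no parent of the recombinant lines had a peak at any of them, 335 of the 932 had a peak in BXH19/TyJ (35.9%, interval 32.9 to 39.1%), but only 1 in BXH2/TyJ (0.107%, interval 0.00272 to 0.596%). Of all partly shared sites, which include those with a peak in a parent, BXH19/TyJ had a peak at 39.1% and BXH2/TyJ at 37.7%. Of the other partly shared sites with a peak in neither parent, BXH19/TyJ had one at 10.7% and BXH2/TyJ at 17.4%. The AKR/J-only sites with more than 42% GC had the same order as the 932, with 28.4% in BXH19/TyJ and 2.04% in BXH2/TyJ. BXH19/TyJ also had the second highest number of AT-rich peaks of the 9 lists, and its part in this overlap was not tested.

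Sequence motifs were searched in the central 200 bp of each site, on both strands and with matches of different motifs allowed to overlap, and in windows of the same length 5 kb to either side. The element GTTAAT, one arm of the palindrome bound by HNF1, was found at 28.4% of the AKR/J-only sites that were not repeated, against 7.08% of their own flanking windows. The mean GC content was 39.9% in these windows and 41.6% in the flanks. It was found at 10.1% of the remaining AT-rich sites in 2 to 6 lists (flanks 8.81%), at 8.10% of repeated AT-rich sites and at 4.30% of all autosomal sites. Its matches lay at the summit of the AKR/J peak, with 13.5 matches per 100 sites within 25 bp of the summit, against 1.72 and 2.04 at the bins 500 bp away. AKR/J-only sites above 42% GC had 7.27 per 100 at the summit, and the remaining AT-rich sites with an AKR/J peak 3.42. The share was 31.04% where BXH19/TyJ also had a peak (interval 26.1 to 36.3%) and 26.97% where it had none (23.4 to 30.7%). TTGCNNAA, a form bound by C/EBP factors, was found at 26.2% (flanks 9.60%), ATTGAT of HNF6 at 18.6% (flanks 10.3%), the forkhead forms TGTTTAC or TATTTAC at 17.2% (flanks 7.73%), TTGGCA of NF1 at 24.5% (flanks 9.87%), AGGTCA of nuclear receptors at 27.3% (flanks 11.9%) and CAAAGTCCA of HNF4 at 3.86% (flanks 0.268%). TTCNNNGAA of STAT factors (9.66%, flanks 6.92%) and TGANTCA of AP-1 (8.37%, flanks 6.81%) were closer to their flanks, and TATAAA was less frequent than in flanks (13.3%, flanks 20.5%), as was CCGCCC of SP1 (0.429%, flanks 2.20%). At all autosomal sites, mostly of higher GC content, the shares were 8.99% for TTGCNNAA, 4.83% for ATTGAT, 4.93% for the forkhead forms, 15.1% for TTGGCA, 19.1% for AGGTCA, 1.19% for CAAAGTCCA, 4.92% for TTCNNNGAA, 5.62% for TGANTCA, 3.67% for TATAAA and 21.5% for CCGCCC. A match is a run of letters and not a bound site. At the remaining AT-rich sites in 2 to 6 lists, AGGTCA was found at 30.6%, TTGGCA at 25.6% and CAAAGTCCA at 4.15%. These shares were no lower than those of the AKR/J-only sites. TTGCNNAA (21.0%, flanks 9.33%), either forkhead form (14.5%, flanks 6.35%) and ATTGAT (12.7%, flanks 8.94%) were less frequent there than at the AKR/J-only sites. Of the forkhead forms, only TATTTAC was less frequent (6.48% against 10.2%), while TGTTTAC was found at 9.07% against 7.51%. The mean GC content was 44.5% in the windows of these remaining sites, against 39.9% in those of the AKR/J-only sites. The part of GC content in these differences was not tested. Repeated AT-rich sites had ATTGAT at 17.4%, TTGCNNAA at 14.3%, AGGTCA at 12.1%, TTGGCA at 8.72%, the forkhead forms at 4.05% and CAAAGTCCA at 0%.

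**Figure D5:**
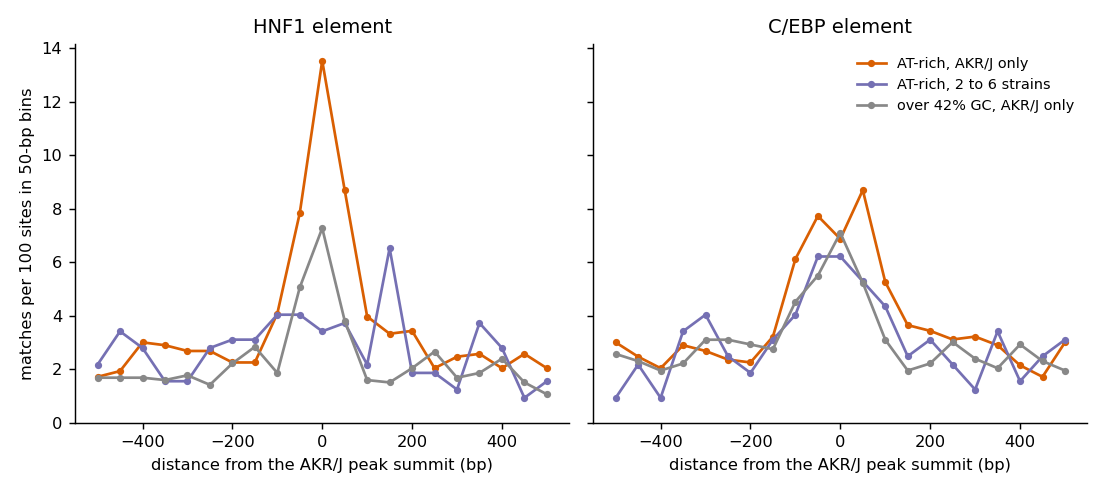
Matches per 100 sites in bins of 50 bp (y axis) by distance from the summit of the AKR/J peak in bp (x axis), for the HNF1 element (left) and the C/EBP element (right). The HNF1 element reaches 13.5 per 100 at the summit of AT-rich sites called in AKR/J alone, 7.27 at AKR/J-only sites above 42% GC, and 3.42 at AT-rich sites of 2 to 6 strains.

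Genes with an AT-rich site in the gene or within 10 kb were counted in lists of liver genes, with no test. Over all 21281 protein-coding genes the share was 5.02%. It was 16 of 31 conjugation enzymes (51.6%), 8 of 21 major urinary proteins (38.1%), 15 of 46 cytochromes P450 (32.6%), 16 of 65 plasma, coagulation and complement proteins (24.6%), 6 of 25 transporters, 5 of 21 genes of glucose and insulin and 6 of 52 lipid and lipoprotein genes (11.5%). It was 1 of 24 hepatocyte transcription factors (4.17%) and 0 of 40 ribosomal proteins, 0 of 10 Kupffer cell markers, 0 of 12 stellate cell markers and 0 of 8 cholangiocyte markers, with 2 of 12 sinusoidal endothelial markers and 1 of 12 lymphocyte markers. For other partly shared sites the shares were 64.5% of conjugation enzymes, 60.9% of cytochromes P450, 28.6% of major urinary proteins, 93.8% of plasma, coagulation and complement proteins, 100% of genes of glucose and insulin, 95.8% of hepatocyte transcription factors, 94.2% of lipid and lipoprotein genes, 84.0% of transporters, 67.5% of ribosomal proteins and 58.4% of all protein-coding genes. Members of a gene cluster can share a site, so these are counts and not independent cases. The 15 cytochromes P450 all had an AKR/J-only site that was not repeated, whereas 5 of the major urinary proteins had a repeated site. Some major urinary protein genes are near-identical copies, and peaks at such copies are uncertain for that reason. At the AT-rich sites within 1 kb of their starts, the share of repeated 31-mers ran from 21.8% (Mup21) to 100% (Mup18).

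At the start sites of listed genes, 26 AT-rich sites lay within 1 kb of 24 genes, and 22 of the 26 were called in AKR/J alone. Of all 155 AT-rich sites within 1 kb of a TSS, 97 were called in AKR/J alone. None of the 26 had a peak in A/J, which was fixed in advance for the 22 called in AKR/J alone. Of all AT-rich sites, 11.7% had a peak in A/J. Peaks in BXH19/TyJ were at 13 of the 26 and in BXH2/TyJ at 2, against 39.8% and 16.5% of all AT-rich sites. These sites near gene starts were listed after their values had been seen. Among them were Cyp2c39, Cyp2c67, Cyp2c68, Cyp2c70 and Cyp2j5, cytochromes of drug and fatty acid oxidation. The percentile in AKR/J was 44.6 for the Cyp2j5 site, 34.3 for the Cyp2c70 site (chr19:40261732-40262053) and between 12.1 and 24.9 for the Cyp2c39, Cyp2c67 and Cyp2c68 sites. Alb, which encodes albumin, had a site over its start (chr5:90889516-90890089) with a percentile of 15.2 in AKR/J and 7.59 in BXH19/TyJ. Gsta3, a glutathione transferase, had one at 42.2 in AKR/J and 14.4 in BXH19/TyJ (chr1:21230371-21230773). The printed site in Nr5a2, which encodes a nuclear receptor of bile acid synthesis, stood at 38.6 in AKR/J and 19.9 in BXH19/TyJ. The Mup20 site, of which 33.4% of 31-mers are repeated, stood at 39.7 in AKR/J alone.

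Such sites also came in clusters. At chr5:87339811-88002130, a window with Sult1b1, Sult1d1 and the Ugt2a and Ugt2b genes for sulphate and glucuronic acid conjugation, 15 of 20 partly shared sites were AT-rich and 14 were called in AKR/J alone. At chr13:4031819-4522819, among Akr1c genes for steroid-reducing enzymes, 12 of 18 were AT-rich, with 10 in AKR/J alone.

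The 386 remaining AT-rich sites in 2 to 6 lists were taken without the single-list sites of their kind, so that their sharing was fixed in advance. AKR/J had a peak at 83.4%, C57BL/6J at 75.6%, BALB/cJ at 71.5%, CBA/J at 71.2%, DBA/2J at 44.3%, C3H/HeJ at 41.7% and A/J at 4.15% of them. Their median width was 358.5 bp and their median mean percentile 28.7. The 79 sites of all strains but A/J were all of this kind and had a median percentile of 46.6. The Slc16a10 site stood at 19.1 in AKR/J, 51.5 in BALB/cJ, 45.3 in C57BL/6J, 40.9 in C3H/HeJ, 43.6 in CBA/J and 49.0 in DBA/2J. A site within 10 kb of Ugt1a9, a glucuronosyltransferase gene (chr1:90120782-90121806), reached 87.4 in DBA/2J and 52.5 in AKR/J, also without a peak in A/J. A site within 10 kb of Slc17a2, a phosphate transporter gene (chr13:23896328-23896818), stood between 40.1 (C3H/HeJ) and 65.6 (DBA/2J). An exception to the absence from A/J was a site near F7, the gene of coagulation factor VII, in an exon of Mcf2l (chr8:13019604-13019927), with 56.8 in A/J and no peak in DBA/2J. Runs of at least 12 identical bases, or of at least 8 copies of a 2-base unit, were found in 17.4% of these sites, against 7.36% of other partly shared sites.

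The recombinant strains gave a look at the AT-rich sites in lists that had not chosen them. Of the 1698, 280 had a peak in BXH2/TyJ (16.5%) and 676 in BXH19/TyJ (39.8%). The first share lies below the 37.7% and the second close to the 39.1% of all partly shared sites. Of 114 repeated AT-rich sites called in C57BL/6J but not in C3H/HeJ, 85 had a peak in BXH2/TyJ (74.6%, interval 65.6 to 82.3%) and 23 in BXH19/TyJ (20.2%, interval 13.2 to 28.7%). Of the 5590 other partly shared sites of that parental state, 31.9% had a peak in BXH2/TyJ and 33.5% in BXH19/TyJ. Of 167 AT-rich sites of the same parental state that were not repeated, the order was the other way round, with 45 in BXH2/TyJ (26.9%, interval 20.4 to 34.3%) and 99 in BXH19/TyJ (59.3%, interval 51.4 to 66.8%). Where both parents had a peak, 85 of 133 sites that were not repeated had one in BXH2/TyJ (63.9%) and 127 in BXH19/TyJ (95.5%), against 75.4% and 85.2% of the other partly shared sites. With 1 list for each recombinant strain, the loci each one inherited, its mice and its libraries cannot be told apart.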

How the data were processed

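FAIRE-seq libraries of 18 liver samples were used in the form of 9 peak lists, 1 per strain over its 2 replicates, and of lists of variable and common sites. The sources state that the authors mapped reads with bowtie1 to strain pseudo-genomes built on mm9, kept reads with a single location, called peaks with F-seq and selected reproducible ones with IDR. The signal column deposited in the peak lists is a peak caller's score with no stated unit, so it was used as a percentile rank within its list. Read depth was not analysed here. By the study's counts of filtered reads, AKR/J had the most of the inbred strains over its 2 libraries and A/J the fewest. BXH19/TyJ had fewer than A/J. The part of depth in the calls was not tested.

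The AT-rich sites, gene lists and motifs were chosen with earlier results of these data known. Overlapping peaks of the 7 inbred lists were merged, and GC content and 31-mer counts were taken from the mm9 assembly, start sites and gene bodies from its gene annotation. Within-strain differences were tested with an exact sign-flip permutation test over 7 strains, adjusted over 5 measures at a threshold of 0.05. Other values are counts with exact 95% intervals. The test was tried on simulated data. Alignment used blastn 2.17.0, statistics used scipy 1.17.1, tables pandas 2.3.3 and numpy 2.4.6, and plots matplotlib 3.10.9, under Python 3.11.15. Of 385 listed genes, 380 matched an autosomal gene. Sites were named by rule: for each strain the single-list site of highest percentile, the 10 sites in 2 to 6 lists and the 10 variable sites in 2 to 5 lists with the highest mean percentile, at most 3 sites per gene list, and the 5 sites on each side of the GC limit. Of these, the ones that bear on a result are given. The site upstream of Ugt2b37, the sites at gene starts and the division into repeated and AKR/J-only sites were added after values had been seen. Alternatives were other GC limits and windows, stronger peaks, other merging and calling rules, single-list sites, no sites with 10% or more repeated 31-mers, and leaving out each strain.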

Additional observations from a re-analysis of the deposited data

Results flagged for a closer look

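In 11 quantities that the choice of sites did not use, the 7 inbred strains were compared with each other for a strain far from the rest, by the gap to its nearest neighbour as a share of the whole range, against Dixon's critical value for 7 values. Chance alone gives about 1 such strain in 20 quantities, and strains are not replicates of one condition. A/J stood apart in 2 of them. The share of AT-rich sites within 1 kb of a TSS minus that of other partly shared sites was -40.3 percentage points in A/J, and the same difference for intergenic sequence was 39.4 points.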

How the results depend on the processing

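Of 163 alternative values, 110 kept their direction and their side of the threshold, or moved by less than their error or the factor allowed for a count. For the others, given here, the cause was not tested. The number of AT-rich sites was 970 with a GC limit of 40%, 2890 with 44% and 615 with the 20000 strongest peaks of each list, and 635 (without AKR/J) to 1686 (without C3H/HeJ) when a strain was left out. The variable share was 11.4, 7.54 and 21.8% under the same 3 settings, 2.25% without sites of 10% or more repeated 31-mers, and 8.96% (without C3H/HeJ) to 20% (without AKR/J). The share with a peak in either recombinant strain, 46.6%, was 43.9, 50.1 and 37.2%, and 45.1% (without A/J) to 59.4% (without AKR/J). Sites called in AKR/J alone numbered 596 at 40% and 200 with the strongest peaks, which left 195 repeated sites. GTTAAT was found at 19.5% of AKR/J-only sites in windows of 100 bp and at 33.2% in windows of 300 bp.

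Differences are AT-rich minus other partly shared sites. Without sites of 10% or more repeated 31-mers they were -86.6 bp for width, -15.7 points for TSS share, 0.514 points for intergenic share and 0.267 points for repeated 31-mers. With single-list sites, of which C3H/HeJ had only 1 that is AT-rich, they were -56.4 bp, -11.3, 10.5 and 48.9 points. None of these passed the threshold. Nor did the width with GC content taken over the central 200 bp (-24.4 bp) or the intergenic share with the strongest peaks (9.32 points). Leaving out a strain gave -96.2 bp (without AKR/J) to -63.4 bp (without A/J), -17.0 to -13.7, 7.01 to 14.5 and 23.2 to 33.9 points, which passed the threshold only without AKR/J. With 6 strains the smallest p is 0.0312. The signal percentile turned to -3.57 when peaks had to cover at least 50% of a site. No paired analysis was possible by replicate, because each strain has 1 list made from both replicates, so that no value carries a replicate number. The pairing in the exact test was by strain, with AT-rich set against other partly shared sites of the same list. The number of reads behind a peak is unknown here, so a weak peak cannot be told from one just missed.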
